A study of Mus musculus with 6 samples.

Results

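Plasma cells are the antibody-secreting end stage of the B cell lineage, and 9 genes that mark them or run their programme were followed in irradiated and non-irradiated mouse femur. The genes were chosen by name: Irf4, Prdm1 and Xbp1 (transcription factors), Tnfrsf13b, Tnfrsf17 and Sdc1 (surface proteins), and Mzb1, Derl3 and Jchain (secretory pathway and antibody assembly). All 9 were found among the 43346 genes of the table, 8 by symbol and Jchain by its gene ID, since the table lists it under the older symbol Igj. All 9 passed the filter on low counts.

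The animals were C57BL/6 mice aged 4 months. A single X-ray dose of 24 Gy (the gray is the unit of absorbed dose) at 6.6 Gy per minute was aimed at 5 mm of the distal metaphysis of the right femur. The left femur was not radiated and served as the control, so every control came from a treated animal and no femur of an untreated mouse was compared. Bone pieces were collected on day 21, before the bone loss seen on day 28, and muscle was taken off before RNA was isolated, leaving 3 libraries per group. The labels do not say that libraries of a group came from different mice, so p-values measure only the spread between these libraries.

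When an activated B cell becomes a plasma cell, the transcription factors IRF4 and BLIMP-1 (encoded by Prdm1) rise, and the B cell identity factor PAX5 is shut off. XBP1 then enlarges the endoplasmic reticulum (ER), the compartment where antibody chains fold and are joined. Bone marrow is a known home of long-lived plasma cells, which depend there on stromal and myeloid cells and on the ligands APRIL and BAFF. Several of the 9 genes are not unique to plasma cells: Irf4, Mzb1 and Tnfrsf13b are also known from B cells, and Xbp1 from other secretory cells.

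Library totals ran from 34034251 to 48708383 gene counts. A single row, AY036118, held 32.9% of the counts of non-radiated library 2 and 0.321% to 5.61% of the others, which left that library with less depth for all other genes. Skeletal muscle transcripts, summed over 10 marker genes, were at 160 to 328 CPM (counts scaled to a common library size by the trimmed mean of M-values, TMM) in the non-radiated libraries. They were at 719, 2364 and 188 CPM in radiated libraries 1, 2 and 3. The bone collagen gene Col1a1 had means of 5233 CPM in non-radiated and 3419 CPM in radiated libraries, so bone RNA was present in both groups. Of 18757 genes tested, 1463 (7.8%) passed an adjusted p of 0.05 in edgeR and are termed called. Of these 58.5% were higher in radiated femur, against 85.4% of 1000 genes under scaling by library totals alone, which moved the median over the whole table to 0.19 in log2.

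Of the 9 plasma cell genes, 3 were called higher (Irf4, Mzb1 and Tnfrsf13b) and none was called lower, against 4.56% of all tested genes called higher and 3.24% called lower. The same 3 genes were the ones whose radiated libraries all lay above all non-radiated libraries, a pattern seen in 14.4% of all tested genes. Positive log2 fold changes were found for 6 of the 9, against 50.5% of all genes tested, and the median was 0.31 against 0.00 for all genes tested. With control library 2 left out the median was 0.16, and with control library 3 left out it was 0.50. Without radiated library 1, Irf4 was the only one of the 9 still called. In a bulk sample, more cells of a type and more RNA per cell cannot be told apart.

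**Figure D1:**
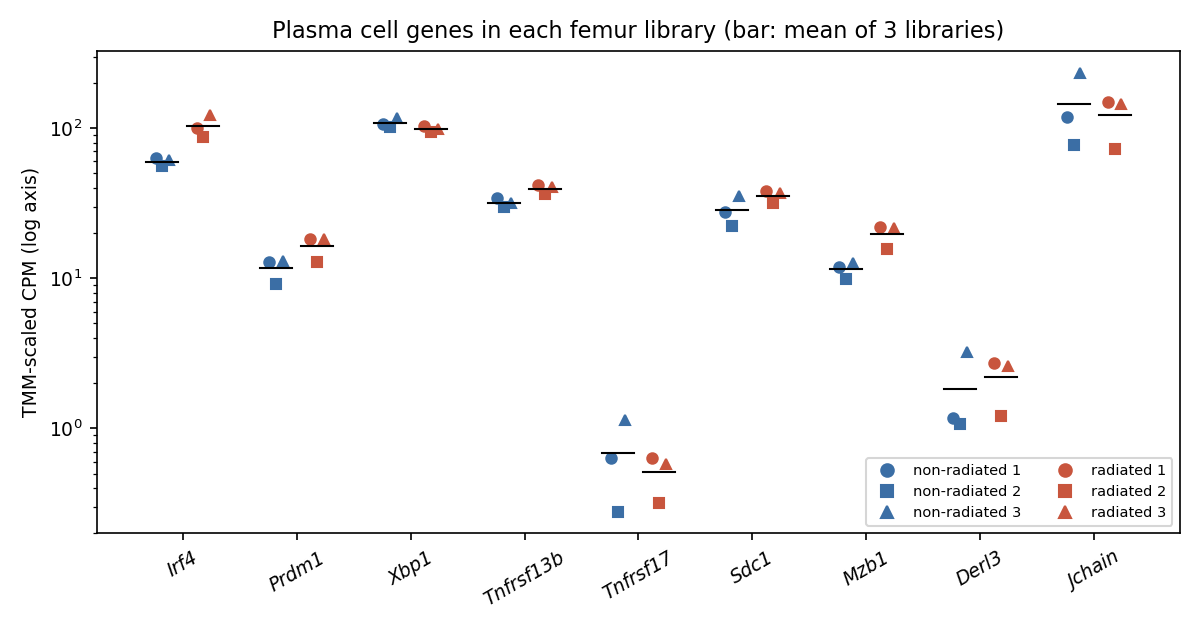
Expression of the 9 plasma cell genes in each of the 6 femur libraries, as TMM-scaled CPM on a log axis; symbols give the replicate number, blue is non-radiated, red is radiated and the bar is the mean of 3 libraries. Irf4, Mzb1 and Tnfrsf13b have no overlap between the groups, while Jchain, Tnfrsf17 and Derl3 are highest in non-radiated library 3.

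Irf4, the factor that starts the plasma cell programme at high dose and is also used by B cells, T cells and macrophages (ENSMUSG00000021356, mm10 chromosome 13, 30749226 to 30766927), was at 62.9, 55.7 and 61.1 CPM in non-radiated libraries 1, 2 and 3. In radiated libraries 1, 2 and 3 it was at 100.1, 87.2 and 122 CPM. Every radiated library was above every non-radiated library, with radiated library 3 the highest. It rose 1.72-fold, by 0.78 on the log2 scale (SE 0.11; adjusted p 0.00318 in edgeR). It was called in all 14 alternative fits, with log2 fold changes from 0.64 to 0.96.

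Prdm1 encodes BLIMP-1, the repressor that ends the B cell programme (ENSMUSG00000038151, chromosome 10, 44437177 to 44528501). It was at 12.8, 9.10 and 13.1 CPM in non-radiated libraries 1, 2 and 3, and at 18.4, 12.8 and 18.2 CPM in radiated libraries 1, 2 and 3. The groups overlapped through radiated library 2, which lay between the controls, although within each replicate number the radiated library was higher. At a log2 fold change of 0.49 (SE 0.17; adjusted p 0.128 in edgeR) it was not called. With the replicate number as a block it was 0.50 (SE 0.09; adjusted p 0.00988 in edgeR) and was called, and it was also called without radiated library 2 (adjusted p 0.0348 in edgeR).

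Xbp1, the factor for the secretory apparatus (ENSMUSG00000020484, chromosome 11, 5520659 to 5525893), did not share that direction. Its values were 106, 101.8 and 118 CPM in non-radiated and 104, 94.0 and 99.1 CPM in radiated libraries 1, 2 and 3. The ranges overlapped and each radiated library was below the non-radiated library of its number. Its log2 fold change of -0.13 (SE 0.07) was not called, with an adjusted p of 0.290 in edgeR, and it was 0.05 under scaling by library totals alone.

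XBP1 becomes an active factor only after the ER stress sensor ERN1 (IRE1) cuts a short stretch out of its mRNA, which changes the reading frame. That stretch is shown because counts per gene sum the cut and the uncut mRNA, so the values above do not report how much Xbp1 was processed. The sequence is from a coding GENCODE M21 transcript of Xbp1. Capitals mark the 26 bases lying between a pair of cut points of the form CNG followed by CAG. All 3 coding Xbp1 transcripts hold it, and 1 further stretch of the same transcript matches that spacing.
Xbp1: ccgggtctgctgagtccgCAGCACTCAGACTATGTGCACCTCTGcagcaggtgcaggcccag

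Among the surface proteins, Tnfrsf13b (TACI) and Tnfrsf17 (BCMA) are receptors for APRIL and BAFF. TACI is known on activated B cells as well as plasma cells, and BCMA is the receptor on which marrow plasma cells depend. Tnfrsf13b (ENSMUSG00000010142, chromosome 11, 61126755 to 61149372) was at 34.1, 29.7 and 31.6 CPM in non-radiated and 41.7, 36.3 and 40.6 CPM in radiated libraries 1, 2 and 3. The groups did not overlap, with the gap set by non-radiated library 1 and radiated library 2. It rose by 0.31 on the log2 scale (SE 0.08; adjusted p 0.0469 in edgeR). Of 14 alternative fits 6 called it, and of the fits that left out 1 library only the one without radiated library 2 did (0.0297). Without a control library, 1, 2 or 3, the edgeR adjusted p was 0.0538, 0.192 and 0.102, and with radiated library 1 or 3 left out it was 0.168 and 0.101.

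Tnfrsf17 (ENSMUSG00000022496, chromosome 16, 11313812 to 11320074) was the lowest of the 9 genes. It had 23, 7 and 48 counts in controls 1, 2 and 3, and 24, 17 and 26 counts in the radiated libraries of those numbers. In CPM these were 0.631, 0.279 and 1.13 against 0.634, 0.318 and 0.583, so the radiated values lay inside the range of the controls. Counting error alone spanned 2.81 to 14.4 counts for the 7 counts of non-radiated library 2 (95% exact Poisson interval). Its log2 fold change of -0.50 (SE 0.46; adjusted p 0.597 in edgeR) became 0.09 without non-radiated library 3. Non-radiated libraries 2 and 3 differed from each other beyond counting error, with 35.4 to 63.6 as the interval of the 48 counts, and the difference between groups was within the spread of the controls.

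Sdc1 encodes syndecan-1 (CD138), the surface proteoglycan by which plasma cells are usually sorted and which epithelial cells also carry (ENSMUSG00000020592, chromosome 12, 8771323 to 8793715). It was at 27.6, 22.3 and 35.4 CPM in non-radiated and 38.0, 31.7 and 37.0 CPM in radiated libraries 1, 2 and 3. Non-radiated library 3 lay within the radiated range. It differed by 0.32 on the log2 scale (SE 0.15; adjusted p 0.260 in edgeR), without a call, and without non-radiated library 3 it was 0.50 and called (adjusted p 0.0470 in edgeR).

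Mzb1, an ER cofactor for antibody chain folding that marginal zone and B-1 B cells and plasmacytoid dendritic cells also express (ENSMUSG00000024353, chromosome 18, 35647266 to 35649367), was at 11.9, 9.86 and 12.6 CPM in non-radiated libraries 1, 2 and 3. It was at 22.0, 15.8 and 21.5 CPM in radiated libraries 1, 2 and 3. No radiated library overlapped the controls, and the lowest library of each group was the one numbered 2. Mzb1 rose 1.71-fold, by 0.78 on the log2 scale (SE 0.14; adjusted p 0.0110 in edgeR). It was called in 13 of 14 alternative fits, the exception being the fit without radiated library 1 (adjusted p 0.0507 in edgeR).

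Derl3 encodes a derlin of the ER that passes misfolded proteins on for degradation (ENSMUSG00000009092, chromosome 10, 75893398 to 75895941). It was at 1.18, 1.08 and 3.23 CPM in non-radiated and 2.75, 1.22 and 2.60 CPM in radiated libraries 1, 2 and 3. Non-radiated library 3 was the highest of all 6 and the other controls were the lowest. A log2 fold change of 0.21 (SE 0.44; adjusted p 0.838 in edgeR) was below its own standard error. Leaving out control library 1, 2 or 3 gave -0.03, -0.05 and 0.93, and none of these fits called it.

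Jchain encodes the joining chain that links IgM and IgA units into polymers, and it was the most abundant of the 9 per length (ENSMUSG00000067149, chromosome 5, 88520512 to 88527891). It was at 120, 77.7 and 234 CPM in non-radiated and 150, 73.1 and 146 CPM in radiated libraries 1, 2 and 3. The spread within groups was larger than the difference between them, and the library numbered 2 was the lowest of its group on both sides. Its log2 fold change was -0.23 (SE 0.38; adjusted p 0.785 in edgeR). Leaving out control library 3 gave 0.31 and leaving out radiated library 2 gave 0.03, and no alternative fit called it.

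**Figure D2:**
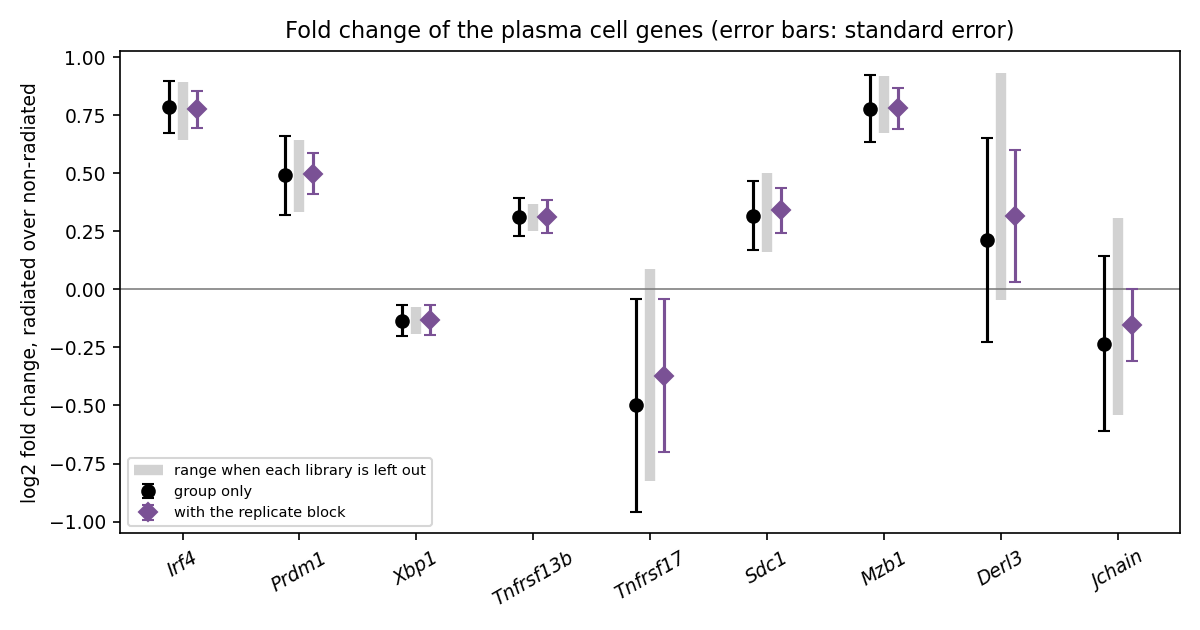
Log2 fold change of each plasma cell gene, radiated over non-radiated, from edgeR with the group as the only term (black circles) and with the replicate number as a block (purple diamonds); error bars are standard errors and grey bars span the fits that each leave out 1 library. Irf4 and Mzb1 lie near 0.78 in both fits, while the grey bars of Tnfrsf17, Derl3 and Jchain cross 0.

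Levels of different genes were compared per kilobase of gene length, as RPKM computed from the counts with TMM scaling. In the non-radiated libraries Jchain was highest at 79.3 ± 44.7 RPKM, followed by Xbp1 at 33.4 ± 2.54 RPKM (mean ± SD, n = 3). Irf4 at 12.7 ± 0.793, Mzb1 at 12.7 ± 1.59 and Tnfrsf13b at 11.2 ± 0.792 RPKM came next, and neighbours in this order had overlapping libraries. Sdc1 stood at 7.46 ± 1.73 RPKM, apart from the genes on either side. Prdm1 at 2.12 ± 0.403, Derl3 at 1.37 ± 0.910 and Tnfrsf17 at 0.836 ± 0.526 RPKM were lowest and overlapped as neighbours. The order was the same in the radiated libraries, where Irf4 was at 21.9 ± 3.78 and Mzb1 at 21.8 ± 3.83 RPKM, both apart from Tnfrsf13b at 13.9 ± 1.01 RPKM.

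The genes differed in how they varied over the 6 libraries, which share 1 scaling and may share animals, so these correlations of log2 CPM are descriptions only. Mzb1 followed Tnfrsf13b (Pearson r 0.971 over 6 libraries) and Irf4 (0.961), and Prdm1 followed Mzb1 (0.945). Jchain followed Tnfrsf17 (0.971) and Derl3 (0.886), but not Irf4 (0.104) or Tnfrsf13b (0.176). Xbp1 ran with Tnfrsf17 (0.816) and Jchain (0.801) and against Irf4 (-0.507). Among 15421 other genes that reached 1 CPM on average, those most like the mean standardized level of the 9 genes were Tfe3 (r 0.995), Mdp1 (0.994), St6galnac4 (0.992), Angpt4 (0.990) and Angpt2 (0.986), none of them called (adjusted p from 0.407 to 0.800 in edgeR). Taking the highest of so many correlations over 6 libraries can give such values by selection alone. Tfe3 ran only from 43.7 to 46.9 CPM.

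Plasma cell genes were next read against the B cell gene Cd79a in the same library. Cd79a encodes a signalling chain of the B cell receptor and rose from 46.7 ± 4.21 to 79.3 ± 6.68 CPM (mean ± SD, n = 3 each; 0.76 on the log2 scale, SE 0.08, adjusted p 0.000785 in edgeR). Counts of a gene per count of Cd79a do not depend on library scaling, but they do depend on the choice of Cd79a. The 12 B cell markers listed below had log2 fold changes from 0.33 to 0.78 (median 0.51), and ratios to the others were not formed. Jchain counts per Cd79a count were 2.60, 1.81 and 4.57 in controls 1, 2 and 3, and 1.73, 0.993 and 1.88 in the radiated libraries of those numbers. Each radiated library was below the non-radiated library of its number, but the groups overlapped between non-radiated library 2 and radiated library 3. The mean difference was -0.91 on the log2 scale (two-sided exact permutation p 0.2; the smallest p that 20 labelings allow is 0.1).

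The same ratio was formed for the other genes after their values had been seen, without a test. Irf4 had 1.37, 1.30 and 1.19 counts per Cd79a count in controls 1, 2 and 3 and 1.16, 1.18 and 1.58 in the radiated libraries of those numbers, a mean log2 difference of 0.01. Mzb1 likewise differed by 0.01, with 0.230 to 0.260 in the controls and 0.214 to 0.277 in the radiated libraries. The groups overlapped for both genes. Their own log2 fold changes were 0.78 each and that of Cd79a was 0.76, and whether these differ was not tested. Xbp1 had 2.30 to 2.37 counts per Cd79a count in controls and 1.20 to 1.28 in radiated libraries, and Tnfrsf13b and Sdc1 were also lower without overlap, with log2 differences of -0.45 and -0.42. Prdm1, Derl3 and Tnfrsf17 had overlapping groups, with log2 differences of -0.26, -0.40 and -1.02. Since Cd79a itself rose, 81% of all tested genes were lower without overlap on this measure and 0.928% were higher.

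**Figure D3:**
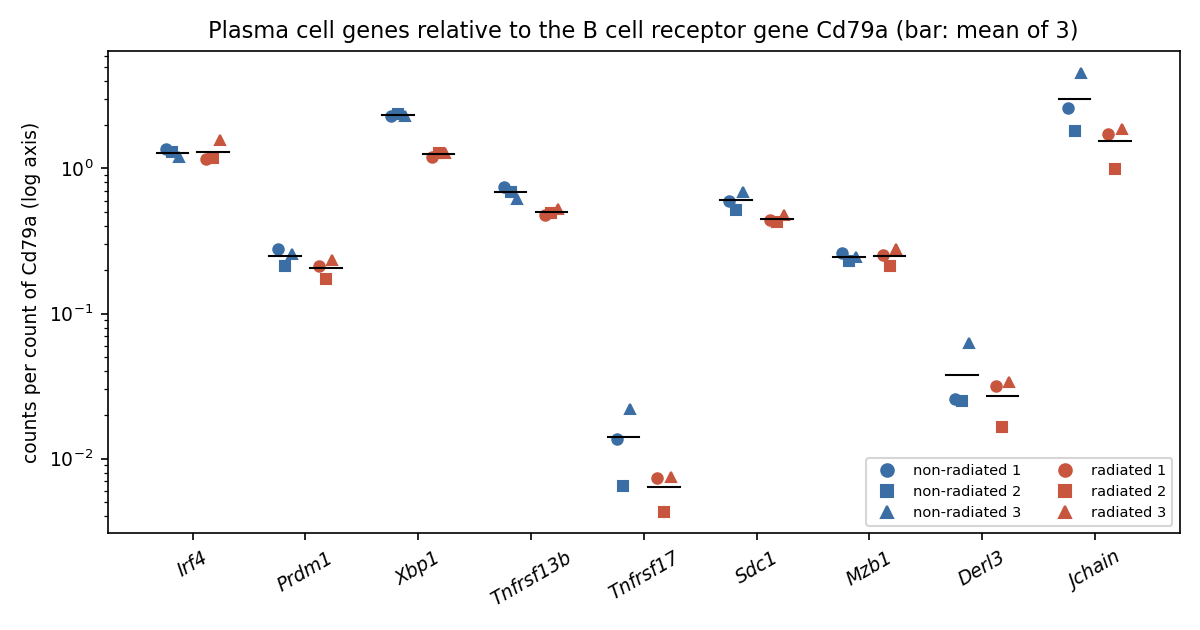
Counts of each plasma cell gene per count of the B cell receptor gene Cd79a in the same library, on a log axis; symbols give the replicate number, blue is non-radiated, red is radiated and the bar is the mean of 3 libraries. Irf4 and Mzb1 overlap between the groups, and Xbp1 drops from about 2.3 to between 1.20 and 1.28.

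Antibody constant genes, which encode the main product of plasma cells, were dominated by Ighm, the heavy chain of IgM. The part of B cells in their counts was not tested. Of 12 listed genes 9 were tested, 1 was called higher and none lower, against 4.56% and 3.24% of all tested genes. The median log2 fold change was 0.09, or -0.20 and 0.58 with control library 2 or 3 left out. The called gene was Ighd, the heavy chain of IgD carried by mature naive B cells, at 51.2 ± 3.50 and 76.4 ± 3.98 CPM in controls and radiated libraries (mean ± SD, n = 3 each; a rise of 0.58 in log2, adjusted p 0.00110 in edgeR). Ighm was at 906, 520 and 2056 CPM in non-radiated and 1589, 805 and 1523 CPM in radiated libraries 1, 2 and 3. The kappa light chain gene Igkc was at 318, 206 and 643 CPM and at 525, 262 and 394 CPM in the same order. Both had overlapping groups, were lowest in the library numbered 2 on both sides, and had log2 fold changes of 0.17 and 0.02 (adjusted p 0.870 and 0.987 in edgeR). Leaving out control library 2 gave -0.20 for Ighm and -0.30 for Igkc, leaving out control library 3 gave 0.86 and 0.58, and the replicate block gave 0.34 and 0.12, none of them called.

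Class-switched heavy chains come mostly from plasma cells and memory cells, and those of Igha and Ighg1 varied more between replicate numbers than between groups. Igha, the IgA heavy chain, was at 140, 188 and 74.2 CPM in non-radiated and 163, 175 and 74.2 CPM in radiated libraries 1, 2 and 3. Ighg1, named here after its values were seen, was at 19.3, 78.5 and 7.20 CPM and at 28.9, 79.1 and 8.69 CPM in the same order. For both genes the library numbered 2 was the highest and the library numbered 3 the lowest in each group. Ighg2b was at 36.5, 28.1 and 17.2 CPM and at 24.9, 17.9 and 14.7 CPM, lower in the radiated library of each number. Its log2 fold change of -0.51 was not called (adjusted p 0.307 in edgeR), while with the replicate block it was -0.48 and called (adjusted p 0.0187 in edgeR), which made 2 called antibody genes. Heavy chain genes of the IgG classes resemble each other, so the division of reads among them is uncertain.

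Ighm made up 77.5%, 59.5% and 91.4% of all heavy-chain constant counts in controls 1, 2 and 3, and 82.7%, 69.0% and 88.9% in the radiated libraries of those numbers. The 95% Wilson interval was widest in non-radiated library 2, at 58.9% to 60.2% of 21872 counts, and covers counting error only. The share ran from the library numbered 2 up to the library numbered 3 in each group. The difference of 4.03 percentage points between the group means was smaller than the spread within groups, which was 16.0 and 10.2 percentage points (SD, n = 3 each; two-sided exact permutation p 0.7).

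**Figure D4:**
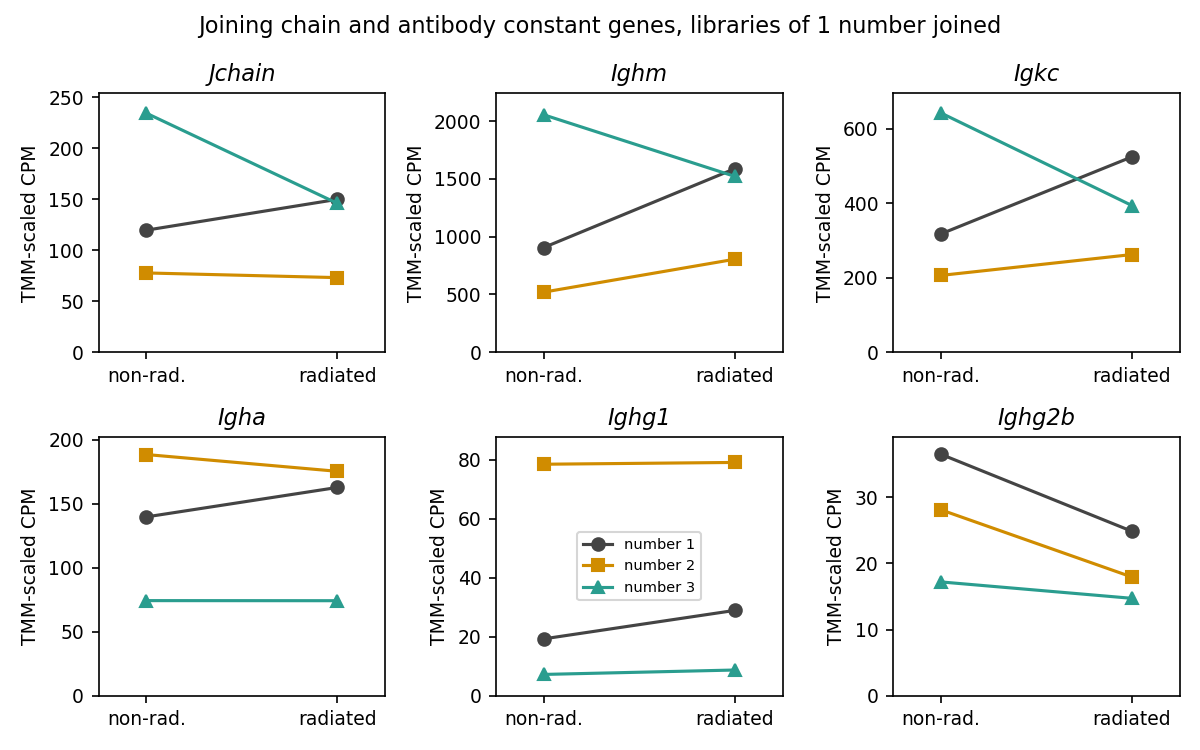
TMM-scaled CPM of Jchain and 5 antibody constant genes in non-radiated and radiated libraries, with the libraries of the same replicate number joined by a line. Igha and Ighg1 are highest in the pair numbered 2 and lowest in the pair numbered 3, and the lines of Jchain do not share a direction.

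Other genes of the plasma cell programme were taken from a list of 25, of which 23 were tested. Of these 4 were called higher and 1 lower, against 4.56% and 3.24% of all tested genes, with a median log2 fold change of 0.13. With control library 2 or 3 left out, the calls numbered 3 and the median was 0.05 and 0.14. Pou2af1, a B cell coactivator of antibody gene transcription, rose from 73.7 ± 5.07 to 134 ± 13.1 CPM (mean ± SD, n = 3 each; log2 change 0.86, adjusted p 0.000295 in edgeR). Slamf7, a surface receptor of plasma cells that natural killer and other immune cells also carry, rose by 0.88 on the log2 scale (adjusted p 0.000505 in edgeR). Cd93, needed for plasma cell persistence in marrow and also expressed by early B cells and endothelium, rose by 0.39 (adjusted p 0.00582 in edgeR). Glcci1 rose by 0.38 but overlaps the row Gm16039, so its counts are uncertain. The gene called lower, Edem1, an ER degradation factor named after its value was seen, fell by 0.21 (adjusted p 0.0481 in edgeR).

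Genes of protein secretion and of the unfolded protein response (UPR), which XBP1 and the sensor ATF6 drive, were tested as a list of 37. Of these 2 were called higher and 2 lower, against 4.56% of all tested genes called higher and 3.24% called lower. Negative log2 fold changes were found for 29, while 50.5% of all genes tested had positive ones, and the median was -0.10. Under scaling by library totals alone 9 were negative and the median was 0.09, below the median of 0.19 of all genes under that scaling. Spcs3, a signal peptidase subunit, fell from 146 ± 5.51 to 118 ± 3.59 CPM (mean ± SD, n = 3 each; log2 change -0.30, adjusted p 0.00821 in edgeR), and Derl1, a relative of Derl3, fell by 0.21 (0.0288; 0.0606 with the replicate block). Herpud1 and Syvn1, which serve ER-associated degradation, rose by 0.27 (adjusted p 0.0200 in edgeR) and 0.44 (0.0274); Syvn1 overlaps Mrpl49. The sensors Ern1 and Atf6 had log2 fold changes of -0.17 and 0.12, and the ER chaperone Hspa5 of -0.15, none of them called (adjusted p 0.141, 0.217 and 0.160 in edgeR). None of the 4 calls was made under library totals alone, 1 was made when control library 1, control library 2 or radiated library 1 was left out, and 2 when radiated library 3 was. Over all fits that left out 1 library, the calls in this list numbered from 1 to 6.

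The ER stress element (ERSE), to which ATF6 and XBP1 are known to bind, was searched as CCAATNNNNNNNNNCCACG on both strands of RefSeq promoters (GRCm38.p6, 250 bases before to 50 after each start). It was present in 0.119% of 32851 promoters. Of the 9 plasma cell genes 8 had a promoter in that set, and 1, Derl3, held the element. Of 31 secretion and UPR genes with a promoter, 7 held it: Calr, Canx, Dnajc3, Hsp90b1, Hspa5, Pdia6 and Syvn1. The shorter UPR element TGACGTGG was in 0.676% of all promoters, in none of the 8 and in 1 of the 31 (Vcp). Of 18 other plasma cell programme genes with a promoter, 3 held the shorter element (Pou2af1, Txndc5 and Ube2j1) and 2 the ERSE (Creld2 and Ero1b). The percentages count promoters, while the lists count genes. The promoter of Derl3 (chr10:75893148-75893447, plus strand) is shown with the element in capitals, which there reads on the minus strand, and a stretch of the Hspa5 promoter (chr2:34772005-34772063, plus strand) gives the element on the plus strand. A match is a description of letters and does not show binding, and neither gene was called.
Derl3: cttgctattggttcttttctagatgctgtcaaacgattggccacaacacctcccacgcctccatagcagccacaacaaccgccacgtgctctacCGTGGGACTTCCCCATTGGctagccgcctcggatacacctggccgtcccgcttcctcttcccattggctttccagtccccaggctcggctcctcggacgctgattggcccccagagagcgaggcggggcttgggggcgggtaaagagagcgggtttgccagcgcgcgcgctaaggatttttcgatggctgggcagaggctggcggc
Hspa5: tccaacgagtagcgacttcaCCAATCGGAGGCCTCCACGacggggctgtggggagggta

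Factors that hold the B cell state, among them those that BLIMP-1 represses, were tested as a list of 12. Of these 7 were called higher and none lower, against 4.56% and 3.24% of all tested genes, with a median log2 fold change of 0.46. Pax5, the B cell identity factor, rose from 29.8 ± 0.551 to 54.1 ± 3.47 CPM (mean ± SD, n = 3 each; log2 change 0.86, adjusted p 8.61e-05 in edgeR). Bach2, which holds back plasma cell formation, rose by 0.82 (adjusted p 0.00211 in edgeR), Ebf1 by 0.84 and Spib by 0.66. Bcl6, the factor of germinal centre B cells, had a log2 fold change of -0.04 (adjusted p 0.814 in edgeR). Ebf1 and Bach2 overlap other transcripts in the table.

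Markers of other cells that could carry plasma cell genes were measured beside them. Of 12 B cell markers all had positive log2 fold changes (median 0.51). Against 4.56% of all tested genes, 10 of these markers were called higher, among them Blk at 0.78, Cd79b at 0.64 and Cd22 at 0.66. Their summed level was 496 to 532 CPM in non-radiated and 709 to 803 CPM in radiated libraries, and none was at 0. Of 12 genes of plasmacytoid dendritic cells 3 were called lower and none higher, against 3.24% and 4.56% of all tested genes. Of the 12 genes 6 had negative and 6 positive log2 fold changes, with a median of -0.01. Their summed level was 246 to 257 CPM in controls and 253 to 267 CPM in radiated libraries. Tcf4 alone gave 104 to 119 CPM of that sum, at a log2 fold change of 0.02. The sum thus says little about the less abundant genes of the list. Among these, Cox6a2 had the largest positive log2 fold change of the list, 1.34 (adjusted p 0.296 in edgeR). It was at 7.19 CPM in radiated library 2 and at 0.851 to 1.52 CPM in the other libraries. Radiated library 2 also had the highest summed muscle level, and the part of muscle in Cox6a2 was not tested. Of the 12 genes 2 were higher without overlap between groups, among them Tlr7 at 0.26 (adjusted p 0.0672 in edgeR), and 4 were lower without overlap. Over all tested genes 14.4% were higher and 11.5% lower without overlap. Siglech, the defining receptor of these cells, fell from 23.7 ± 1.53 to 12.9 ± 0.948 CPM (mean ± SD, n = 3 each; log2 change -0.87, adjusted p 0.000477 in edgeR), and Ccr9 and Cd300c fell by 0.91 and 0.83; Ccr9 overlaps Slc6a20a and Lztfl1. Under library totals alone all 3 stayed negative but lost their calls (adjusted p 0.0587 for Siglech in edgeR). In that fit 1 gene of the list was called higher. Without radiated library 3 the list had 5 calls.

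Of 10 T cell markers 2 were called higher (Il7r at 0.74, which early B cells also express, and Lck at 0.49), with summed levels of 81.6 to 86.8 CPM in non-radiated and 118 to 124 CPM in radiated libraries. Of 10 macrophage markers 7 were called higher, among them C1qb at 0.60 and C1qa at 0.57, with summed levels of 801 to 842 and 1003 to 1182 CPM. Over all tested genes 4.56% were called higher. All 10 skeletal muscle markers had positive log2 fold changes with a median of 2.28 and none was called. The median was 0.95 without radiated library 2 and 1.70 with the replicate block, where 9 were called, and all 10 were called under library totals alone and with no filter on low counts. The muscle marker Acta1 was at 55.8, 204 and 15.3 CPM in radiated libraries 1, 2 and 3. Its SE was 0.75 in the main fit and 0.23 under library totals alone, so calls in that fit take less account of this spread. Without radiated library 1 the T cell, macrophage and muscle lists had 1, 4 and 1 calls, without non-radiated library 2 the macrophage list had 4, and without radiated library 3 the muscle list had 8. The part of these cells in the levels of Irf4, Mzb1 and Tnfrsf13b was not tested.

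Genes of the niche in which plasma cells survive were tested as a list of 20. Of these 4 were called higher and 2 lower, against 4.56% and 3.24% of all tested genes, and the median log2 fold change was 0.00. The ligands APRIL (Tnfsf13) and BAFF (Tnfsf13b) had log2 fold changes of -0.06 and -0.12 (adjusted p 0.758 and 0.628 in edgeR), and Tnfsf13 overlaps a read-through gene. The BAFF receptor of B cells, Tnfrsf13c, rose from 15.7 ± 1.57 to 23.9 ± 2.45 CPM (mean ± SD, n = 3 each; log2 change 0.60, adjusted p 0.00795 in edgeR). Thus of the receptors for these ligands Tnfrsf13c and Tnfrsf13b were called and Tnfrsf17 was not; whether the 3 changes differ from each other was not tested. Cxcl12, the chemokine that keeps plasma cells in marrow, was at 1006 to 1050 CPM in non-radiated and 779 to 889 CPM in radiated libraries, a log2 fold change of -0.28 that was not called (adjusted p 0.0515 in edgeR). Of 14 alternatives 5 called it and none of the 6 that left out 1 library did, with adjusted p from 0.000406 (DESeq2 Wald test) to 0.855 (edgeR, library totals alone).

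Il6st, the signalling subunit of the interleukin-6 receptor, fell by 0.48 on the log2 scale (adjusted p 0.00254 in edgeR), and Il6 itself was at 0.179 to 0.370 CPM in all 6 libraries with no call (0.791). Cd44, an adhesion receptor named after its value was seen, fell by 0.25 (adjusted p 0.0270 in edgeR). Under library totals alone the edgeR adjusted p of Il6st was 0.636 at a log2 fold change of -0.29. Gas6 and Hspg2, a ligand of TAM receptors and the matrix proteoglycan perlecan, rose by 0.65 and 0.67 (adjusted p 0.00510 and 0.00582 in edgeR).

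**Figure D5:**
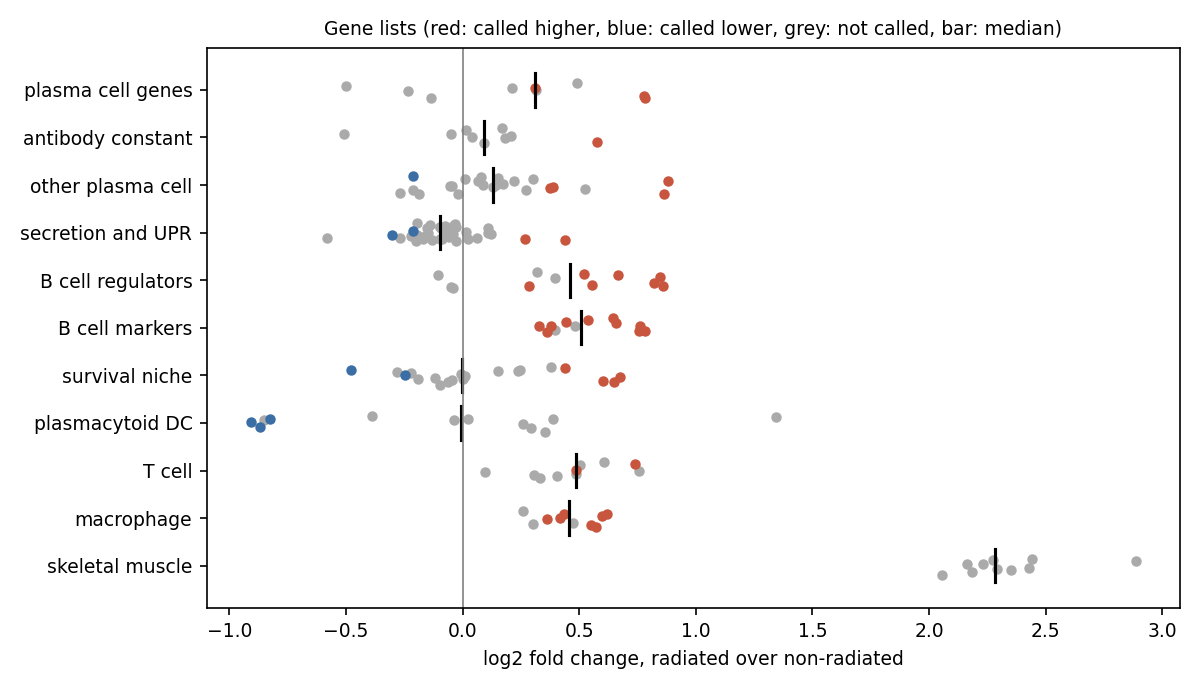
Log2 fold change, radiated over non-radiated, of every tested gene in the plasma cell set and 10 lists; red points were called higher, blue points lower, grey points were not called, and the black bar is the median. The plasma cell genes spread from -0.50 to 0.78, B cell markers all lie above 0, and skeletal muscle genes lie highest without a call.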

How the data were processed

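RNA-seq gene counts of 3 radiated and 3 non-radiated femur libraries were analysed, grouped by their labels. Per the submitters' processing notes the tools were bcl2fastq, STAR 2.5.2b, Subread and featureCounts with build mm10; per the labels' protocols the kit was stranded. The annotation release, filters and strand setting are not given in the sources used here. The deposited counts are whole numbers per gene. RPKM values deposited by the authors were not used; the RPKM printed here was computed from the counts, the table's gene length and TMM.

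The test was edgeR 4.0.16 (R 4.3.3), with filterByExpr (minimum count 10, minimum total 15), TMM, glmQLFit and glmQLFTest with the group as the only term, and Benjamini-Hochberg adjustment over 18757 genes (called: under 0.05). Standard errors came from the fold change and the F statistic. The common biological coefficient of variation was 12.9%. Of 169 list entries 167 were found. On simulated data the fit recovered 65.3% of 2-fold and 97.9% of 4-fold changes and called 15 of 18371 unchanged genes. None of the 9 plasma cell genes changed by as much as 2-fold, so a missing call does not show that a gene was unchanged. Same-numbered libraries deviated together from their group means (Pearson r 0.186, 0.349 and 0.204 over genes, against -0.221 to 0.0203 for other pairs). Deviations within a group cancel out, so positive values for same numbers push the others down. The labels do not state a pairing, so the main fit ignored it, and the numbers were taken to pair the libraries only in the replicate block. Alternatives were DESeq2 1.42.0 size factors and Wald test, library totals with and without AY036118 and Gm26917, other filters, limma-voom (limma 3.58.1), the replicate block and leaving out each library. The plasma cell genes and lists were chosen with earlier results of these data known. Named genes are the 9, the 4 with the smallest p in each list, 17 chosen for their role and the 5 with the most similar pattern; exceptions are stated, and not every gene the rule gives is reported here.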

Additional observations from a re-analysis of the deposited data

How the results depend on the processing

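The count of called plasma cell genes, 3, ran from 1 to 4 over the fits that left out 1 library, and was 1 without radiated library 1. Irf4 was called in all 14 alternatives and Mzb1 in 13, while Tnfrsf13b was called in 6, Prdm1 in 4, Sdc1 in 1, and Xbp1, Tnfrsf17, Derl3 and Jchain in none. With the replicate block 4 plasma cell genes and 1670 genes of the whole table were called, Prdm1 being added; beside the calls named in the report, no other plasma cell gene changed its call. The whole-table count of 1463 ran from 764 (without radiated library 1) to 1376 over the fits that left out 1 library, at 905 and 819 with non-radiated library 1 or 2 left out. Without both libraries numbered 2, an alternative chosen after seeing the data, 779 genes and 3 plasma cell genes were called, with Prdm1 called (edgeR adjusted p 0.0429) and Tnfrsf13b not (0.109). For Jchain per Cd79a count and the Ighm share, the mean of the paired differences equals the difference of group means by construction. Pairing by replicate number thus left -0.91 and 4.03 as they were and is no check on them. The two-sided exact permutation p with pairing was 0.25 and 0.5, and 3 pairs cannot give less than 0.25. Tnfrsf17 had 7 to 48 counts a library, so its counting intervals are wide, and the spread of Derl3, at 27 (17.8 to 39.3) to 137 (115 to 162) counts in the controls, was beyond counting error (95% exact Poisson intervals).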
